A study of Ictalurus furcatus with 6 samples.

Results

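Flagellar nucleotide kinases of the *nme* and *ak* families were followed in RNA-seq data of testicular sperm from blue catfish (*Ictalurus furcatus*, strain D&B). They were chosen by name, as every row of the deposited expression table named *nme2*, *nme4*, *nme5*, *nme7*, *nme8*, *ak1*, *ak7* or *ak8*, with or without a final a or b. This gave 8 of the 27416 rows, with 1 row each for *nme4*, *nme5*, *nme7*, *nme8*, *ak1*, *ak7a*, *ak7b* and *ak8*, while no row was named *nme2*. The names were chosen with earlier results of these data known. The paper lists nucleoside diphosphate kinase activity among the terms enriched in its upregulated genes, so calls of members are no independent support for that result. Sperm was taken from testes that were dissected from mature males and washed in Hank's balanced salt solution. In the fresh-frozen group it was flash-frozen in liquid nitrogen, and in the cryopreserved group it was diluted, mixed with methanol as a cryoprotectant and cooled in straws at a controlled rate. Both kinds of sample were thawed in a warm water bath before RNA extraction, so the comparison has no unfrozen group. The paper describes sperm extracted from the testis tissue that remained after flash-freezing as the source of the cryopreserved samples. The groups thus also differ in dilution, cryoprotectant and storage, and may differ in how sperm was extracted. These differences cannot be told apart from the way of freezing. The comparison took fresh-frozen F2 and F3 against cryopreserved C2, C3 and C5, where the number is the ID of the male, and the fresh-frozen sample of male 5 was not analysed here. The 2 technical replicates of C2 were averaged.

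Nucleoside diphosphate kinases (Nme proteins) move the terminal phosphate from one nucleoside triphosphate to another, which lets ATP regenerate GTP and other triphosphates. Adenylate kinases (Ak proteins) convert a pair of ADP molecules into ATP and AMP and back. A flagellum is long and thin, and such enzymes, bound along the axoneme, can regenerate ATP for the dynein motors far from the mitochondria. Several family members carry kinase domains inside proteins that are also structural parts of motile cilia and sperm tails, and in mammals mutations in some of them cause immotile sperm or ciliary disease.

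The deposited values were treated as CPM (read counts scaled to one common total per library), since every column sums to nearly the same total, and CPM is not divided by gene length, so that levels of different genes are not compared. Differences were tested with limma on log2(CPM + 1), with the false discovery rate (FDR) by the Benjamini-Hochberg method over the 27255 rows with a group mean above 1 CPM. A gene was called upregulated at an FDR below 0.05 and a log2 fold change above 2. Fold changes are given on this scale, so those of low genes come out too small. The libraries did not resemble each other equally. The median row had 15.6 to 15.7 CPM in the fresh-frozen samples, against 9.55 (C2), 15.0 (C3) and 2.03 CPM (C5). Rows listed at 0 numbered 2664 for C5, 537 for F2 and 99 for F3, with 0 for the other cryopreserved samples. Over all rows tested the median log2 fold change was -1.02.

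In 7 of the 8 kinase rows the values of C2, C3 and C5 were all higher than those of F2 and F3, and *nme4* was the exception. By limma 5 members were called upregulated, namely *ak1*, *ak7a*, *nme5*, *nme8* and *ak7b*, and 0 were called downregulated. At an unadjusted p below 0.05 the limma fit gave 6 members, the same 5 and *ak8*, all higher in cryopreserved sperm, as were 6.89% of all rows at that threshold. Over the whole table, upregulation was called for 1.54% of the 27255 rows tested, and 13.6% had every cryopreserved sample above every fresh-frozen sample. The median log2 fold change of the 8 members was 3.05, against -1.02 over all rows. Summed over the 8 members, the level was 403 (F2) and 390 CPM (F3) against 3135 (C2), 1693 (C3) and 5426 CPM (C5). Together they took 0.0405% and 0.0392% of the summed CPM in F2 and F3, and 0.314%, 0.171% and 0.544% in C2, C3 and C5. In a bulk sample, more cells that carry a transcript and more transcript in each cell cannot be told apart. All 8 members passed the filter on low values. The direction of the 7 members whose groups did not overlap held under every processing tried. Without overlap it could not turn when a sample was left out or the pseudocount, filter, prior or block was changed. The calls did not hold under every processing. After TMM rescaling 2 members were called, while the share of all rows called upregulated was 1.79%, against 1.54% before. After median centring of the libraries, with a constant limma prior or without C2, 0 members and 0% of all rows were called. Without C5, the library that stood furthest from the others in its median row, 5 members and 3.10% of all rows were called. Relative to the median of all rows, the log2 fold changes of the 5 called members lay between 3.09 and 6.06 under all 17 refits.

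**Figure D1:**
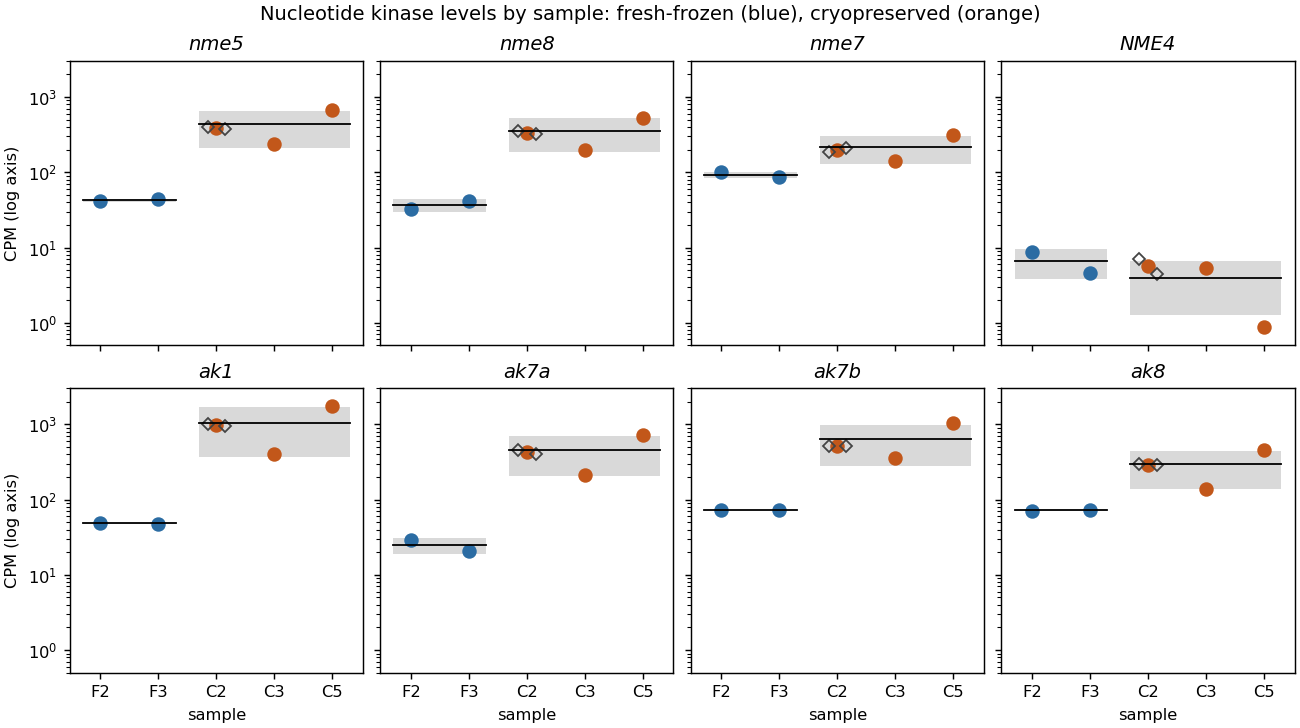
Level of each kinase in CPM on a log axis, by sample, with fresh-frozen samples in blue and cryopreserved samples in orange. Lines are group means, grey bands are 1 SD (n = 2 and n = 3), and open diamonds are the technical replicates of C2. In 7 of 8 panels the orange points lie above the blue ones, with C3 lowest and C5 highest, whereas *NME4* overlaps and is lowest in C5.

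Among the nucleoside diphosphate kinases, *nme5* encodes a small protein with a kinase domain that belongs to the radial spokes, the structures that link the outer doublets of the axoneme to its centre. *nme5* (AUIFUG00000018174) had 41.2 (F2) and 43.9 CPM (F3) against 390 (C2), 237 (C3) and 669 CPM (C5). The groups were far apart, and the lowest cryopreserved sample, C3, was 5.58-fold above the fresh-frozen mean. The group means were 42.6 ± 1.96 (fresh-frozen, SD, n = 2) and 432 ± 219 CPM (cryopreserved, SD, n = 3), a log2 fold change of 3.19 (standard error, SE, 0.58, limma with Benjamini-Hochberg adjustment, FDR = 0.0198).

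*nme8*, also called *txndc3*, encodes a protein with a thioredoxin domain and several kinase domains that is linked to the outer dynein arms, and mutations in the human gene have been described in primary ciliary dyskinesia. *nme8* (AUIFUG00000006429) had 32.1 (F2) and 41.8 CPM (F3) against 334 (C2), 197 (C3) and 529 CPM (C5). The increase over the fresh-frozen mean was 9.04-fold in C2, 5.34-fold in C3 and 14.3-fold in C5, close to the 9.16-fold, 5.58-fold and 15.7-fold of *nme5* in the same samples. The log2 fold change of *nme8* was 3.12 (SE 0.60, limma with Benjamini-Hochberg adjustment, FDR = 0.0256).

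*nme7* encodes a protein inside the doublet microtubules of cilia and flagella, and its product is also found with the gamma-tubulin complex. *nme7* (AUIFUG00000009418) had 99.5 (F2) and 86.2 CPM (F3) against 196 (C2), 140 (C3) and 315 CPM (C5). The groups did not overlap, but the step was smaller, at 1.50-fold in C3 and 3.39-fold in C5. The log2 fold change of 1.14 (95% interval -0.10 to 2.37, limma FDR = 0.266 by Benjamini-Hochberg) did not pass the test, and this interval does not exclude a change of more than 4-fold.

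*nme4* encodes the mitochondrial nucleoside diphosphate kinase, which in mammals sits between the mitochondrial membranes and is no axonemal protein. *NME4* (AUIFUG00000006600) had 8.75 (F2) and 4.62 CPM (F3) against 5.71 (C2), 5.28 (C3) and 0.871 CPM (C5). The groups overlapped, and C5 stood below the others. Its log2 fold change was -0.79 (95% interval -2.89 to 1.31, limma FDR = 0.572 by Benjamini-Hochberg), which lies near the median of all rows, and its sign turned positive with TMM rescaling, median centring or quantile normalization. The technical replicates of C2 differed by 43.3% of their mean for this gene, and by 0.937% to 12.5% for the other members.

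Among the adenylate kinases, *ak1* encodes the short cytosolic enzyme, which is abundant in muscle and in the mouse has also been located to the sperm tail. *ak1* (AUIFUG00000020187) had 49.2 (F2) and 47.4 CPM (F3) against 973 (C2), 403 (C3) and 1724 CPM (C5). The ratio of the group means, 21.4, was the highest of the 8 members, and single samples were 8.35-fold over the fresh-frozen mean in C3 and 35.7-fold in C5. The group means were 48.3 ± 1.24 (fresh-frozen, SD, n = 2) and 1034 ± 662 CPM (cryopreserved, SD, n = 3). The log2 fold change of 4.16 (SE 0.58, limma with Benjamini-Hochberg adjustment, FDR = 0.00720) was exceeded by 0.730% of all rows.

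*ak7* encodes a long adenylate kinase of the axoneme, whose loss in humans leads to malformed sperm flagella, and the table holds a pair of rows for it. *ak7a* (AUIFUG00000006016) had 29.2 (F2) and 20.5 CPM (F3) against 429 (C2), 215 (C3) and 711 CPM (C5). *ak7b* (AUIFUG00000006430) had 72.1 (F2) and 71.7 CPM (F3) against 517 (C2), 356 (C3) and 1030 CPM (C5). Both rows were called upregulated, with log2 fold changes of 3.99 (SE 0.64, FDR = 0.0111) for *ak7a* and 2.98 (SE 0.53, limma with Benjamini-Hochberg adjustment, FDR = 0.0175) for *ak7b*. That they are paralogs is taken from their names, and in the RefSeq annotation of blue catfish *ak7a* was matched by symbol and *ak7b* was not. Paralogs may share reads, and how the counting treated reads that map to both is not given in the sources used here.

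*ak8* encodes an adenylate kinase of the axoneme, which in human cells was found with Cfap45 and Cfap52, proteins inside the doublet microtubules. *ak8* (AUIFUG00000020622) had 71.0 (F2) and 73.4 CPM (F3) against 291 (C2), 140 (C3) and 449 CPM (C5). Every cryopreserved sample was above the fresh-frozen ones, by 1.93-fold in C3 and 6.21-fold in C5. The log2 fold change of 1.85 (95% interval 0.53 to 3.17, limma FDR = 0.232 by Benjamini-Hochberg) missed both thresholds. Without C3, the sample with the smallest step, it was 2.31 and *ak8* was called upregulated (FDR = 0.00176 from limma). Over the alternatives that kept at least 2 samples in each group, its limma FDR ranged from 0.00176 to 0.449. Calls rose over the whole table without C3, where 6.77% of all rows were called upregulated, against 1.54% with all samples. The gained call is therefore not particular to *ak8*.

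**Figure D2:**
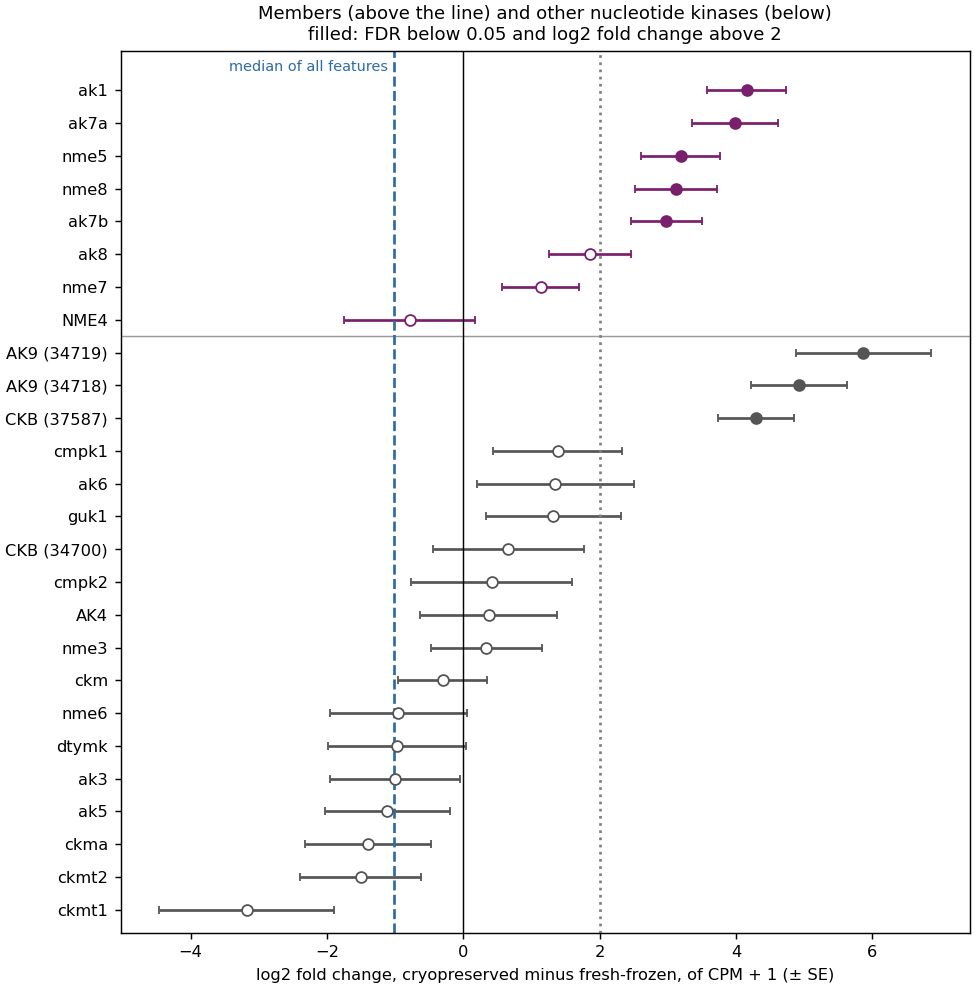
Log2 fold change of CPM + 1 between cryopreserved and fresh-frozen sperm with its standard error, for the 8 members (above the line) and 18 rows of other nucleotide kinases (below it). Filled points passed an FDR below 0.05 and a log2 fold change above 2, the dotted line marks 2 and the dashed line the median of all rows, -1.02. Of these, 5 members and 3 other rows are filled, and *NME4* lies close to the dashed line.

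In 7 of 8 members the cryopreserved samples stood in the same order, with C3 lowest, C2 between and C5 highest. This order was found in 10.9% of all rows tested and in 57.3% of the 3708 rows whose cryopreserved samples were all above the fresh-frozen ones, so it is common among such rows. C3, the cryopreserved sample whose median row was nearest to fresh-frozen sperm, had the smallest increase of every such member. Males 2 and 3 gave both kinds of sample. From F2 to C2 the log2 difference was 4.28 for *ak1*, 3.83 for *ak7a*, 3.34 for *nme8* and 3.21 for *nme5*. From F3 to C3 it was 3.06, 3.32, 2.21 and 2.41 in the same order of genes. For these 4 genes the difference was positive in both males and smaller in male 3. Without C2, 0 of 8 members were called, as was true of all rows, so this loss was not particular to the kinases. The log2 fold changes of the 5 members called with all samples then lay between 3.06 and 4.08. Their FDRs from limma were then 0.272 to 0.449.

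**Figure D3:**
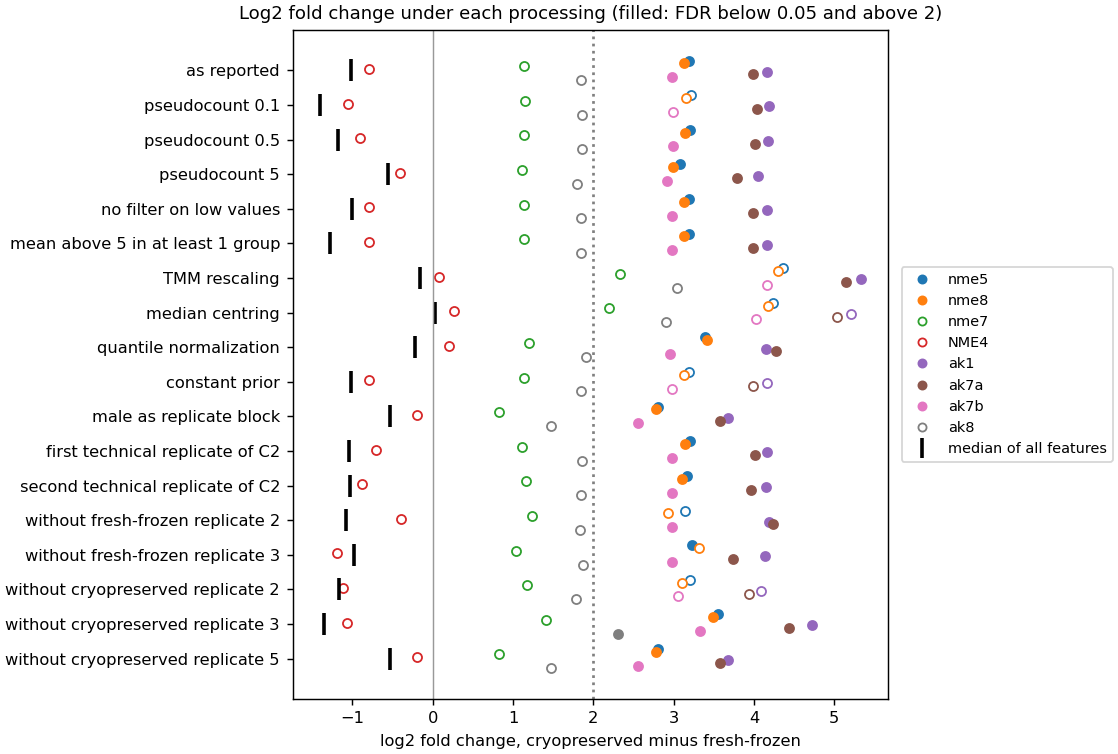
Log2 fold change of each kinase under 17 alternatives to the reported processing (rows), with filled points for an FDR below 0.05 and a log2 fold change above 2, and a black bar at the median of all rows. The fold changes of 7 members, those whose groups did not overlap, stay above 0 in every row, which was fixed in advance for most rows. The number of filled points ranges from 0 to 6.

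The rank of a gene within its sample does not change when a library is rescaled as a whole. It depends on gene length, so each gene is compared only with itself in other samples. Among all rows of a sample, *ak1* stood at percentile 76.6 in F2 and 76.5 in F3, and at 99.8, 99.6 and 99.8 in C2, C3 and C5. *ak7a* was at percentile 64.4 in F2 and 56.6 in F3, and between 98.2 and 99.1 in the cryopreserved samples. *nme8* was at 66.4 and 73.6 in F2 and F3, and between 97.7 and 98.7 in the cryopreserved samples. These genes, at percentiles 56.6 to 76.6 in fresh-frozen sperm, thus stood between 97.7 and 99.8 in all cryopreserved samples. *nme7* was at percentile 90.3 in F2 and 88.3 in F3, and lay between 95.2 and 97.5 in the cryopreserved samples. *NME4* was between percentiles 23.1 and 38.3 in all 5 samples, and its groups overlapped in rank as well. Like ranks do not mean like levels, since the spread of values differed between the libraries. *NME4* had 0.871 CPM in C5 at percentile 36.7, and 8.75 CPM in F2 at percentile 38.3.

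**Figure D4:**
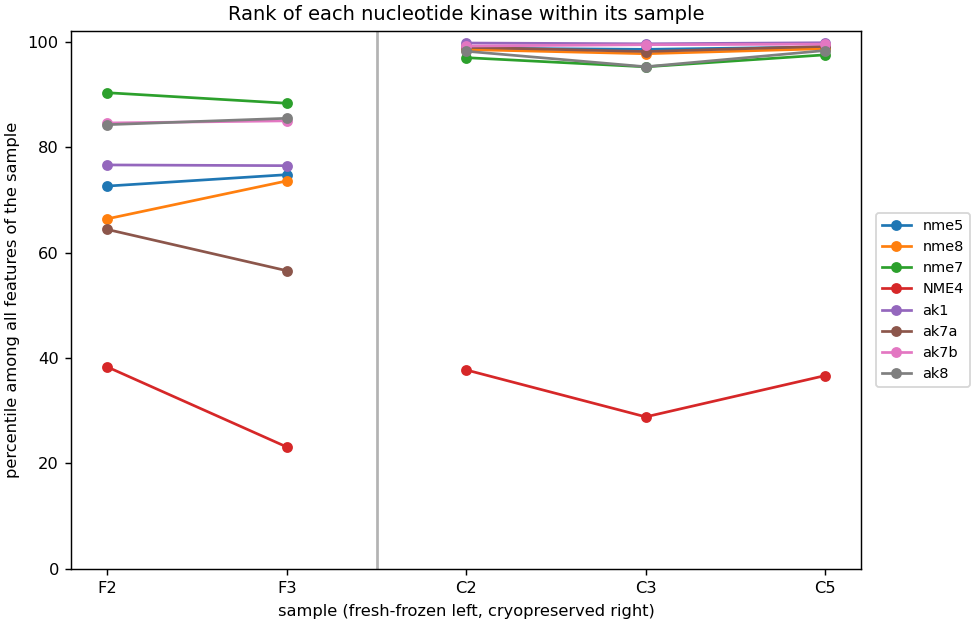
Percentile of each kinase among all 27416 rows of its sample, with fresh-frozen samples left of the grey line and cryopreserved samples right of it. In C2, C3 and C5, 7 members lie between percentiles 95.2 and 99.8, and *NME4* lies between 23.1 and 38.3 in all samples.

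Ratios between members of the same sample are also free of library scaling, and *nme7* was taken as the denominator, a choice made after its values were seen, since *nme2* had no row. The ratio of *ak1* to *nme7* in CPM was 0.494 in F2 and 0.550 in F3, and 4.96, 2.89 and 5.48 in C2, C3 and C5. The difference between the groups in log2 ratio was 3.02 (two-sided exact permutation test, p = 0.1, adjusted p = 0.14 over 7 ratios). With 2 samples against 3, this test cannot go below 0.1. For *ak7a* the log2 ratio to *nme7* differed by 2.85, for *nme5* by 2.05, for *nme8* by 1.98 and for *ak7b* by 1.84, each with the cryopreserved samples above the fresh-frozen ones (same exact test, p = 0.1 and adjusted p = 0.14 for each). For these 5 genes the gap to *nme7* between the groups was thus wider than the spread within either group. Each difference is the log2 fold change of the gene less that of *nme7*, 1.14, the smallest among the members with non-overlapping groups. These ratios are therefore no separate evidence for the calls. For *ak8* the difference to *nme7* was 0.71 (same exact test, p = 0.2, adjusted p = 0.2), with CPM ratios of 0.714 and 0.851 in F2 and F3, and 1.48, 1.0 and 1.43 in C2, C3 and C5. With *nme3* as the denominator, a nucleoside diphosphate kinase outside the axoneme, the log2 ratio of *ak1* differed by 3.82 and that of *nme5* by 2.85 (exact permutation test, p = 0.1 for both, adjusted p = 0.133 over 8 ratios). C5 weighed most in both, with log2 ratios of 3.56 (C2), 2.96 (C3) and 6.07 (C5) for *ak1*. For *nme5* they were 2.24 (C2), 2.20 (C3) and 4.70 (C5). For *nme7* over *nme3* the difference was 0.80 with overlapping groups (exact permutation test, p = 0.7). For *NME4* over *nme3* it was -1.13, with every cryopreserved ratio below the fresh-frozen ones (exact permutation test, p = 0.1, adjusted p = 0.133).

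**Figure D5:**
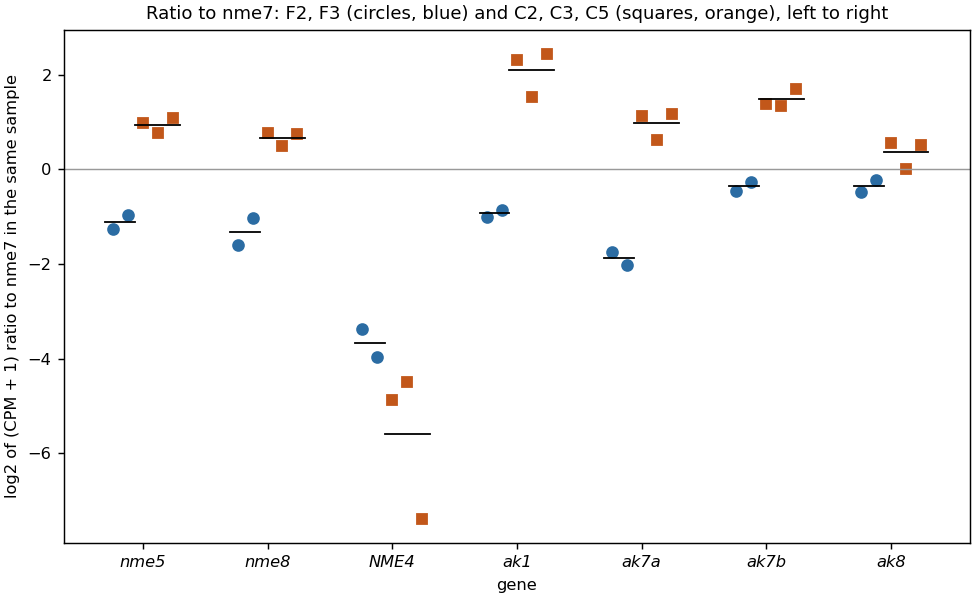
Log2 ratio of each kinase to *nme7* in the same sample, on CPM + 1, with fresh-frozen samples as blue circles, cryopreserved samples as orange squares and lines at the group means. *ak1*, *ak7a*, *nme5*, *nme8* and *ak7b* lie below 0 in both fresh-frozen and above 0 in all cryopreserved samples. Gene length enters each ratio, so the position of 0 does not show which gene was more abundant. *NME4* has its lowest value in C5.

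The other enzymes of nucleotide phosphate transfer were taken from a list of 20 names, of which 16 had at least 1 row and 18 rows were tested. A final a or b was accepted here too, and the listed name *ck* was met only by the rows named *CKB*, which is listed as well. In 5 of the 18 rows every cryopreserved sample was above the fresh-frozen ones, against 13.6% of all rows tested. In 4 rows every one was below, against 41.7% of all rows tested. The median log2 fold change was 0.36. By limma 3 rows were called upregulated and 0 downregulated, against 1.54% and 0% of all rows tested. The 3 rows were a pair named *AK9*, a long adenylate kinase with repeated kinase domains that is linked to the axoneme in mammals, and 1 of the rows for *CKB*, creatine kinase B, which regenerates ATP from phosphocreatine. *AK9* (AUIFUG00000034718) had 9.47 (F2) and 7.68 CPM (F3) against 257 (C2), 178 (C3) and 519 CPM (C5). The log2 fold change of this row was 4.92 (SE 0.71, limma with Benjamini-Hochberg adjustment, FDR = 0.00751). The second *AK9* row (AUIFUG00000034719) had 1.07 (F2) and 5.22 CPM (F3) against 230 (C2), 67.7 (C3) and 581 CPM (C5). Its log2 fold change was 5.87 (SE 0.99, FDR = 0.0144 from the same limma fit). The IDs follow each other directly and RefSeq lists a single *ak9*, so that they may be pieces of 1 gene and are not independent.

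*CKB* (AUIFUG00000037587) had 51.7 (F2) and 43.9 CPM (F3) against 750 (C2), 564 (C3) and 2066 CPM (C5). The groups did not overlap, and the log2 fold change was 4.30 (SE 0.56, limma with Benjamini-Hochberg adjustment, FDR = 0.00515). A second *CKB* row (AUIFUG00000034700) had 2.86 to 21.6 CPM with overlapping groups. Of the kinases without a call, those named here had the highest means. *ak3*, the kinase of the mitochondrial matrix that uses GTP, had 53.9 (F2) and 39.9 CPM (F3) against 52.0 (C2), 29.6 (C3) and 7.19 CPM (C5). *nme3* had 48.1 (F2) and 28.2 CPM (F3) against 81.7 (C2), 50.9 (C3) and 24.7 CPM (C5). Neither passed the limma test, with FDRs of 0.470 and 0.779. *ckma*, a creatine kinase of muscle, had 44.1 (F2) and 37.6 CPM (F3) against 22.0 (C2), 24.2 (C3) and 5.87 CPM (C5), and did not pass either (FDR = 0.324 from limma). *ckmt1*, a mitochondrial creatine kinase, had 44.5 (F2) and 37.1 CPM (F3) against 1.40 (C2), 28.6 (C3) and 0.371 CPM (C5). All its cryopreserved values were below the fresh-frozen ones, and its log2 fold change, the lowest of the list, was -3.18 (SE 1.28, unadjusted p = 0.0299, limma FDR = 0.265 by Benjamini-Hochberg). A further row is named *nm23*, the older family name of the nucleoside diphosphate kinases, and was picked after its values were seen. It had 43.7 (F2) and 33.4 CPM (F3) against 294 (C2), 157 (C3) and 157 CPM (C5), with a log2 fold change of 2.31 (limma FDR = 0.114 by Benjamini-Hochberg).

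Structural genes of the axoneme were compared from a list of 10 names, of which 9 were found. In all 9 rows the cryopreserved samples lay above the fresh-frozen ones in the order C3, C2, C5. Of all rows tested, 13.6% lay above in any order. By limma 6 rows were called upregulated, against 1.54% of all rows tested. The median log2 fold change of the 9 rows was 3.67, with a range of 1.27 to 4.85. Those named below had the highest means and were all called. Among them *cfap45* had 49.6 (F2) and 35.7 CPM (F3) against 1160 (C2), 556 (C3) and 1854 CPM (C5) (log2 fold change 4.62, limma FDR = 0.00401 by Benjamini-Hochberg). The radial spoke genes *rsph14*, *rsph1* and *rsph3* had log2 fold changes of 4.85, 4.83 and 3.11. *ak8* is a partner of Cfap45 in human cells, and the ratio of *ak8* to *cfap45* in CPM was 1.43 and 2.05 in F2 and F3, and 0.251, 0.251 and 0.242 in C2, C3 and C5. The ratio was nearly the same in all 3 cryopreserved samples, although the level of *ak8* itself differed between them by more than 3-fold. The difference in log2 ratio between the groups was -2.77 (two-sided exact permutation test, p = 0.1, the smallest it can give). The ratio of *ak8* to *cfap52* was 13.0 and 3.96 in F2 and F3, and 0.894, 1.27 and 0.746 in C2, C3 and C5, so it varied more among the cryopreserved samples. Its log2 difference was -2.79 (same exact test, p = 0.1, adjusted p = 0.1 for both ratios). Both ratios were picked after the values were seen.

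The likeness of 2 genes was measured as the Euclidean distance between their log2(CPM + 1) values in the 5 samples, each centred on its own mean, over 19519 other named rows. The closest pair among the members was *nme5* and *nme8*, at 0.23, and each was the second nearest of all named rows to the other. The other near rows of *nme5* were LOC108271564 and *Ctsf*, both at 0.23. Nearest to *nme8* was *jhy*, at 0.22, a gene named for juvenile hydrocephalus in the mouse, and *fbxo36* came after *nme5*, at 0.28. The rows nearest to *ak1* were LOC108262309, LOC108274276 and *spag6*, a gene of the central pair of the axoneme, at 0.15, 0.16 and 0.17. Those nearest to *nme7* were *dnajc7*, *rfwd3* and *spata17*, at 0.13, 0.15 and 0.19. Which members were described in this way was not set in advance. Of the other members, the single nearest row was *c9h8orf74* for *ak7a*, at 0.12, and *MCRS1* for *ak7b*, at 0.21. For *ak8* it was *got1l1*, at 0.13, and for *NME4* it was *cap2*, at 0.15. With 5 samples many rows have near-identical profiles, and these distances are a description only.

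Of the 8 members, 6 were matched by symbol in the RefSeq annotation of the blue catfish assembly Billie_1.0. This assembly may differ from the build used for mapping and served for the order of genes alone. Immediate neighbours of these members that had a single row in the table were looked up. *rack1* next to *nme5*, *eng* next to *ak1* and *papola* next to *ak7a* were not called. Neither were *xpo6* next to *nme4* and *ddx31* next to *ak8*. Log2 fold changes of these neighbours lay between -1.45 and 1.21. A missing call is common, since 1.54% of all rows tested were called upregulated and 0 downregulated. *rack1* was higher in every cryopreserved sample, with 113 (F2) and 119 CPM (F3) against 388 (C2), 232 (C3) and 220 CPM (C5). *papola* had 187 (F2) and 202 CPM (F3) against 185 to 224 CPM in the cryopreserved samples, beside the increase of *ak7a*. The neighbour of *ak8* on its other side, *spaca9*, a gene named for the acrosome of sperm, was called upregulated, with 14.6 (F2) and 13.1 CPM (F3) against 427 (C2), 259 (C3) and 644 CPM (C5) (log2 fold change 4.81, limma FDR = 0.00513 by Benjamini-Hochberg). The annotated ends of *ak8* and *spaca9* overlap, as do those of *nme7* and *atp1b1a*, and the strand setting of the counting is not given in the sources used here, so that reads of the shared ends could be assigned to either gene. *nme8* and *ak7b* have consecutive IDs in the table. The rows before and after this pair had log2 fold changes of -1.26 and -1.04.

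Marker lists of sperm and of other cells a testis sample can hold came to 35 rows. None was at 0 in any sample, but few rows of any kind were at 0 outside C5. Of 14 rows for sperm and spermatids, 6 were called upregulated, against 1.54% of all rows tested. In 11 the cryopreserved samples were all above the fresh-frozen ones, against 13.6% of all rows tested. The groups overlapped in 2 rows, and in 1 the cryopreserved samples were all below, against 41.7% of all rows tested. The row below was 1 of the rows named *HYDIN* (AUIFUG00000040218), with a log2 fold change of -1.38. *Tekt2*, with overlapping groups, had -0.54. The summed level of the 14 rows was 634 to 701 CPM in fresh-frozen and 3841 to 13735 CPM in cryopreserved sperm. The sums had the order C3, C2, C5 that 7 of the kinases had. In cryopreserved sperm the largest single part was *tekt1*, with 2526 (C2), 1280 (C3) and 5292 CPM (C5). Of 8 rows for earlier germ cells, 0 were called and 7 had overlapping groups, as did 12172 of all 27255 rows tested. The 8 rows summed to 287 to 367 CPM in fresh-frozen and 135 to 421 CPM in cryopreserved sperm. Of 6 rows for Sertoli cells, the supporting cells of the testis, 0 were called and in 3 the cryopreserved samples were all below, where 41.7% of all rows tested were. The median log2 fold change of these 6 rows was -1.41, against -1.02 over all rows. Their sum was 196 to 250.5 CPM in fresh-frozen sperm and 51.3 (C2), 163 (C3) and 7.10 CPM (C5), the order that the median row of these libraries had as well. Most of this sum came from *sox9* and *wt1b*, while *amh* and *CLDN11* had log2 fold changes of -0.20 and -0.13. *sox9* had 108 (F2) and 129 CPM (F3) against 17.7 (C2), 111 (C3) and 0.873 CPM (C5), and did not pass the test (FDR = 0.265 from limma). Of 3 rows for Leydig cells and 4 for red blood cells, 0 were called. With 1.54% of all rows called upregulated and 0 downregulated, 0 calls in lists this short do not show that a cell type was unchanged. The red blood cell sum was 145 to 158 CPM in fresh-frozen sperm and 97.8 to 855 CPM in cryopreserved sperm, highest in C2. The part of these shifts in the kinase levels was not tested.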

How the data were processed

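Sperm RNA was poly(A)-selected and sequenced from strand-specific libraries. As described by the study, reads were checked with FastQC 0.11.6, trimmed with Trimmomatic 0.39, mapped with TopHat2 2.1.1 and counted with HTSeq 1.0. The genome build is not given in the sources used here. The authors deposited values named RPKM, whose columns sum to nearly the same total, as CPM do and RPKM do not, so they were treated as CPM. Their logCPM column, a log2 mean deposited beside them, was used only to check the unit (Spearman correlation with the mean of the columns across rows, 1.00) and is the authors' value over all samples. The deposited values carry no read counts, and the read totals stated by the study were not used here, so no counting error is given and no count test was run. The table's own fold changes and p-values were not used.

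The mean of both technical replicates of C2 was 1 sample. limma 3.58.1 in R 4.3.3, with a trended prior, was fitted on log2(CPM + 1) over all 27255 rows with a group mean above 1 CPM, without a block, for F2 and F3 against C2, C3 and C5. The number in a sample name is the male, so males 2 and 3 pair samples across groups. Over all rows the difference F2 minus F3 correlated with C2 minus C3 at -0.02. Ratios were compared with two-sided exact permutation tests in Python 3.11.15. Of the other kinases, every called row and at most 4 others with the highest mean were named, of the axonemal genes at most 4 with the highest mean, and of likeness the 3 nearest rows of at most 4 members. Genes outside this rule (*nm23*, genomic neighbours, the second *CKB* row, single marker genes, the nearest rows of the other members) were named after their values were seen. A gene of the list of other kinases is not reported here. The members and lists were chosen with earlier results of these data known. Alternatives were pseudocounts of 0.1, 0.5 and 5, other filters, TMM rescaling, median centring, quantile normalization, a constant prior, male as a block, each technical replicate of C2, other thresholds, and each sample left out.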

Additional observations from a re-analysis of the deposited data

How the results depend on the processing

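The upregulated count of 5 members became 2 with a pseudocount of 0.1 or TMM rescaling and 0 with median centring or a constant prior. It ranged from 0 (without C2) to 6 (without C3) when samples were left out, with 3 without F2. The count of 3 other kinases became 0 with median centring or a constant prior, and ranged from 0 (without C2) to 3. No member was called downregulated under any alternative. Of 17 refits, *ak1* and *ak7a* kept their call in 14, *ak7b* in 12, *nme5* in 11, *nme8* in 10, *ak8* gained one in 1, and *nme7* and *NME4* had none. The log2 fold change of *NME4* turned to 0.0811 with TMM rescaling, 0.26 with median centring and 0.20 with quantile normalization. The cause of these changes was not tested.

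Over all rows the upregulated count of 421 became 484 with TMM rescaling, 156 with a pseudocount of 0.1 and 670 with a pseudocount of 5. This count was 0 with median centring or a constant prior, 1420 with quantile normalization and 657 at an FDR below 0.1. It ranged from 0 (without C2) to 1840 (without C3), with 263 without F3 and 846 without C5. The downregulated count of 0 (limma, 3083 rows at an unadjusted p below 0.05) became 4 with a pseudocount of 5, 100 with quantile normalization, 2 and 1 with the first and second technical replicate of C2 and 8 at an FDR below 0.1, and ranged from 0 to 6965 (without C3), with 25 without C5. The median log2 fold change of all rows, -1.02, was -0.16 with TMM rescaling, 0.03 with median centring and -0.22 with quantile normalization.

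With male as a replicate block, which leaves 1 residual degree of freedom and rests on males 2 and 3, 1136 rows were called upregulated and 120 downregulated, and the block changed no call among the members, of which 5 were called, or among the other kinases. The planned ratio to *nme2* could not be run because no row has that name, and ratios to *nme7*, *nme3*, *cfap45* and *cfap52* were added after the data were seen. With 2 samples against 3 and no read counts in the deposited values, the counting error of low genes such as *NME4* was not computed.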
